A study of Mus musculus with 12 samples.

Results

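The comparison described here set *Nf2*-KO tumorspheres against a second knockout group of the same cell line, with 3 libraries in each group and all 18926 genes of the deposited tables as its members. These 6 libraries are part of a series of 12 libraries in 4 groups. The cells of all groups were S1, a line from the gastric cancer of a ChetPS mouse, which has a conditional *Cdh1* allele on one chromosome and conditional *Trp53* and *Smad4* alleles on both, and all carried Cas9 from a PiggyBac transposon. Knockouts were made with lentiviral guide RNAs, Cas9 cells were used as pooled clones, and the age of the animal is not given in the sources used here. The cells were grown as tumorspheres, which are clusters that form in suspension on low-attachment plates in medium with EGF, B-27 and N-2 supplements, although the labels of the samples call them a monolayer cell.

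The second group carries conflicting names. Its genotype label names knockouts of *Rasa1* and of *Nf2* together, whereas the names of its deposited tables give *Rasa1*-KO alone. By the labels, the comparison is of *Nf2*-KO with a double knockout, and by the table names it is of one single knockout with another. The mRNA levels of the targeted genes, given below, follow the table names, as these libraries were low in *Rasa1* but not in *Nf2*. The libraries are called "labelled double-KO" throughout, which repeats their label and does not state that *Nf2* was lost. Every direction below is between those libraries and *Nf2*-KO, whichever name is right. The remaining groups, control with a non-targeting guide and "labelled *Rasa1*-KO" (whose tables have "Do" in their names), were not in the fit and are used for their levels and for a separate comparison at the end. No source states that libraries of a group came from separate cultures, and a legend in the study calls its points technical replications. The p-values therefore measure the spread between libraries, which may be technical.

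*Nf2* encodes merlin, a membrane-associated scaffold that promotes activation of the LATS kinases of the Hippo pathway. LATS kinases phosphorylate YAP and TAZ and keep these coactivators of TEAD transcription factors out of the nucleus. *Rasa1* encodes p120 RasGAP, which accelerates GTP hydrolysis by Ras and so limits signalling to ERK. Both genes act as tumor suppressors in epithelia.

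The targeted genes were measured first. *Nf2* (Entrez gene 18016, GRCm38 chromosome 11, 4757639 to 4849544) had 14.4, 13.2 and 13.1 CPM in *Nf2*-KO and 64.1, 57.3 and 56.7 CPM in the libraries labelled double-KO. All *Nf2*-KO values lay below all others, with a log2 fold change of -2.12 ± 0.090 (SE; adjusted p = 1.7e-06 in edgeR). In control it had 53.2 to 60.6 CPM, a range that held 2 of the values labelled double-KO, and in the libraries labelled *Rasa1*-KO it had 11.6 to 12.1 CPM. *Rasa1* (Entrez gene 218397, GRCm38 chromosome 13, 85214699 to 85289486) had 97.7, 101 and 96.2 CPM in *Nf2*-KO and 18.1, 20.5 and 23.4 CPM in the libraries labelled double-KO. Its log2 fold change was 2.26 ± 0.11 (SE; adjusted p = 2.5e-06 in edgeR), and control had 61.6 to 75.5 CPM against 30.5 to 34.6 CPM in the libraries labelled *Rasa1*-KO. The libraries labelled double-KO were thus low in *Rasa1* mRNA and at the control level of *Nf2* mRNA, while those labelled *Rasa1*-KO were low in both. For the libraries labelled double-KO this pattern follows the names of their tables and not the genotype label. CPM are counts per 1000000 counts of a library, scaled by TMM factors over all 12 libraries. An edited gene can keep its mRNA, so the level checks the labels only in part.

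Of 17600 genes tested by edgeR, 8152 differed between the groups at an adjusted p under 0.05, which is 46.3% of the genes tested. In *Nf2*-KO 4051 were higher (23.0%) and 4101 lower (23.3%). The median log2 fold change of all genes tested was -0.0042 and the median standard error 0.1414, and 5286 of the calls were under 2-fold. Values in parentheses after a gene are log2 fold changes, positive where *Nf2*-KO was higher, and percentages beside counts of list members are shares of the members tested, to be read against the 23.0% and 23.3% of all genes. At 2-fold or more, 1095 of the called genes were higher and 1771 lower. Under the criterion of the study (3-fold, unadjusted p below 0.05) 523 genes were higher (2.97%) and 860 lower (4.89%). The plot of all genes tested shows calls in both directions at every level above about 1 CPM. Counts per library were between 76472023 and 96674463, and 7S RNA took 8.17% to 10.4% of them in *Nf2*-KO and 9.12% to 13.9% in the libraries labelled double-KO. Replicate 1 of the libraries labelled double-KO stood apart from replicates 2 and 3, at a distance of 86.4 to 86.6 in log2 CPM over all genes tested against 45.8 between these, whereas *Nf2*-KO libraries were 47.7 to 52.1 apart and libraries of different groups 125 to 141. Without it 5026 genes were higher and 5047 lower, or 515 and 937 under the criterion of the study.

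**Figure D1:**
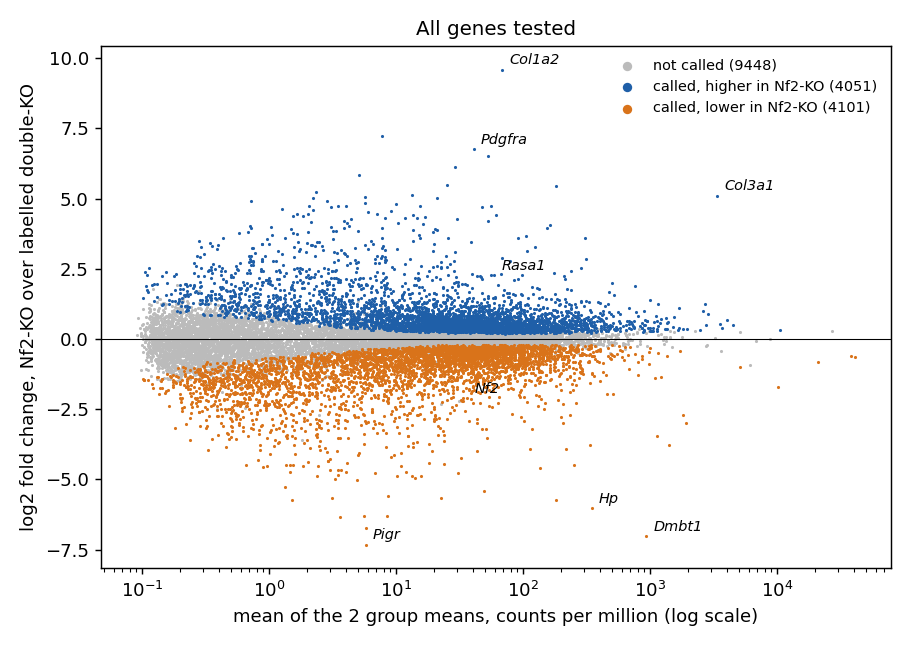
Log2 fold change of *Nf2*-KO over the libraries labelled double-KO (vertical axis) against the mean level in CPM on a log scale, 1 point for each of 17600 genes tested. Genes called higher (4051) are blue, genes called lower (4101) orange, and *Col1a2* at the top and *Pigr* at the bottom mark the extremes among the genes labelled.

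Several of the genes with the largest positive log2 fold changes encode matrix proteins or enzymes that process the matrix. *Pdgfra*, the PDGF receptor alpha (GRCm38 chromosome 5, 75151322 to 75198206), had 81.8, 82.6 and 78.8 CPM in *Nf2*-KO and 0.347, 0.905 and 1.03 CPM in the libraries labelled double-KO. The groups were far apart, with a log2 fold change of 6.76 ± 0.31 (SE; adjusted p = 2.2e-06 in edgeR), and control libraries spread from 0.227 to 6.05 CPM. *Mmp2*, a gelatinase that degrades collagen, had 112, 103 and 102 CPM in *Nf2*-KO against 0.672, 1.48 and 1.37 CPM, a log2 fold change of 6.52 ± 0.26 (SE; adjusted p = 1.2e-06 in edgeR). *Serpinf1*, which encodes the secreted anti-angiogenic factor PEDF, had 56.5, 54.9 and 59.2 CPM against 0.414, 1.08 and 1.03 CPM, a log2 fold change of 6.11 ± 0.29 (SE; adjusted p = 2.6e-06 in edgeR). In each of these genes replicate 1 of the libraries labelled double-KO was the lowest library.

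*Col3a1*, the chain of fibrillar collagen III (GRCm38 chromosome 1, 45311538 to 45349706), had the largest difference in mean CPM of all genes tested in the higher direction. Its level was 6261, 6561 and 6856 CPM in *Nf2*-KO and 98.1, 244 and 239 CPM in the libraries labelled double-KO (log2 fold change 5.10 ± 0.35 SE). *Adamts2*, the procollagen N-proteinase that trims fibrillar procollagens, had 48.1, 48.6 and 49.7 CPM against 1.11, 1.21 and 1.01 CPM and 5.47 on the log2 scale. *Rcn3*, a calcium-binding protein of the endoplasmic reticulum, differed by 5.00, *Podnl1*, a small leucine-rich matrix proteoglycan, by 4.80, and *Rgs17*, an inhibitor of G-protein signalling, by 4.85 as log2 fold changes. *Tmem119* (5.12), *Dchs2* (5.05), a large cadherin, and *Gask1b* (5.03) completed, together with *Col1a1*, the 12 genes with the largest positive log2 fold changes among called genes with at least 10 counts in each of the 6 libraries. Adjusted p-values of edgeR for all 12 were at most 9.4e-05.

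**Figure D2:**
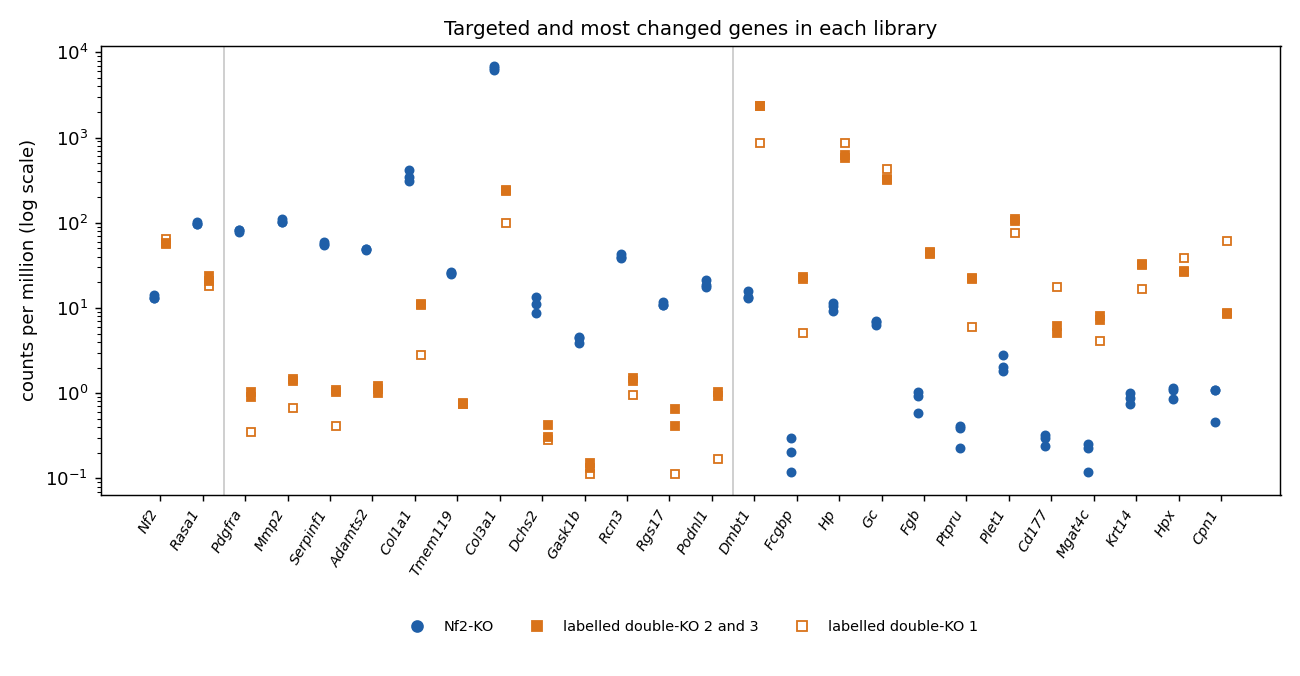
CPM on a log scale in each of the 6 libraries for *Nf2*, *Rasa1*, and the 12 genes with the largest positive and the 12 with the largest negative log2 fold change among called genes with at least 10 counts in each library. Circles are *Nf2*-KO and squares the libraries labelled double-KO, with replicate 1 open. Absence of overlap between the groups was a condition for choosing the most changed genes, and the groups did not overlap for *Nf2* and *Rasa1* either. Replicate 1 often lies apart from the filled squares, as for *Cpn1* and *Col1a1*.

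The 12 genes with the largest negative log2 fold changes, chosen in the same way, were of several kinds. *Dmbt1*, a scavenger-receptor protein that binds bacteria in mucus (GRCm38 chromosome 7, 131032057 to 131121628), had 15.8, 13.4 and 13.3 CPM in *Nf2*-KO and 861, 2337 and 2337 CPM in the libraries labelled double-KO. Its log2 fold change was -7.01 ± 0.43 (SE; adjusted p = 8.4e-06 in edgeR), and control libraries held 842 to 3972 CPM. *Fcgbp*, a mucus protein that binds the Fc part of IgG, had 0.118, 0.205 and 0.299 CPM against 5.13, 22.9 and 22.1 CPM (-6.31 on the log2 scale). The haemoglobin-binding haptoglobin gene *Hp* had 10.5, 9.20 and 11.3 CPM against 869.7, 616 and 570.5 CPM, a log2 fold change of -6.03 ± 0.20 (SE; adjusted p = 4.3e-07 in edgeR). *Gc*, the vitamin D-binding protein, was lower with a log2 fold change of -5.72, *Fgb*, the fibrinogen beta chain, with -5.68, and *Hpx*, the haem-binding hemopexin, with -4.87. Values for *Gc* were 6.29, 7.03 and 6.92 CPM against 427, 322 and 329 CPM, and those for *Fgb* 0.591, 1.03 and 0.931 CPM against 43.8, 43.2 and 45.0 CPM.

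Among the other genes of this set, *Plet1*, an epithelial surface protein, had 1.83, 2.01 and 2.84 CPM against 75.2, 104 and 110.3 CPM (-5.42), and *Krt14*, a keratin of basal cells, 0.886, 0.741 and 1.00 CPM against 16.7, 32.8 and 32.0 CPM (-4.94, both log2 fold changes). *Ptpru*, a receptor tyrosine phosphatase, had a log2 fold change of -5.60 and *Mgat4c*, a glycosyltransferase, of -4.98. *Cd177* had 0.319, 0.239 and 0.299 CPM against 17.4, 5.09 and 6.12 CPM and *Cpn1*, the catalytic chain of carboxypeptidase N, 0.461, 1.08 and 1.08 CPM against 60.5, 8.53 and 8.70 CPM. For both of these replicate 1 was the highest library, and without it the log2 fold changes were -4.29 instead of -5.04 and -3.29 instead of -4.87. *Krt14* and *Mgat4c* were higher in every library labelled double-KO than in any control library, whose ranges were 1.22 to 6.25 CPM and 0.119 to 1.13 CPM.

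By difference in mean CPM, 6 genes were chosen in each direction among called genes with a change of 2-fold or more. In the higher direction these were, besides *Col3a1*, *Vim*, *Ero1l*, *Hspa5*, *Fbln2* and *Col4a1*. *Vim*, the intermediate filament of mesenchymal cells, had 3866, 3762 and 3855 CPM in *Nf2*-KO and 1424, 1733 and 1709.9 CPM in the libraries labelled double-KO (log2 fold change 1.25). *Ero1l*, an oxidase of disulfide-bond formation, had 2322, 2400.5 and 2115 CPM against 912, 1129.5 and 1163 CPM (1.11), and the matrix glycoprotein gene *Fbln2* 1448, 1416 and 1489.5 CPM against 627, 530.0 and 531 CPM (1.38). In the lower direction these were *Spp1* (osteopontin, -1.01), *Clu* (the secreted chaperone clusterin, -3.00), *Trf* (transferrin, -3.77), *C3* (the central complement component, -3.46), *Dmbt1* and the uncharacterised *Gm46894* (-2.70). *C3* had 212, 182 and 162 CPM against 2989.5, 1575 and 1624 CPM, and *Clu* 434, 401 and 425 CPM against 3178, 3457 and 3525 CPM. Absence of overlap between the groups was a condition of this choice, and it held for 10066 of the 17600 genes tested.

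Markers of cell types were counted because the leading genes include genes of fibroblasts. *Col1a1* and *Pdgfra* belong to both sets, so the fibroblast share below partly repeats the leading genes and is no separate result. Of 6 fibroblast markers tested, 5 were higher (83.3% against 23.0% of all genes), namely *Col1a2*, *Col1a1*, *Pdgfra*, *Pdgfrb* and *Dcn*, and *Acta2* was lower, with a median log2 fold change of 5.07. Their summed level was 653 to 764 CPM in *Nf2*-KO, 29.5 to 47.2 CPM in the libraries labelled double-KO, 37.2 to 118 CPM in control and 184 to 229 CPM in the libraries labelled *Rasa1*-KO. The defining markers *Lum* and *Thy1* have no value in the tables, which list only genes with a count in all 12 libraries. Of 9 epithelial markers of the stomach, 4 were lower (44.4% against 23.3% of all genes) and 0 higher, and *Krt8* had 2487, 2452 and 2772 CPM in *Nf2*-KO and 3473, 2810.5 and 2772 CPM in the libraries labelled double-KO (log2 fold change -0.22, adjusted p = 0.16 by edgeR). *Cldn18*, a tight-junction gene of gastric cells, was under 1 CPM in every library of both groups, at 0.284, 0.137 and 0.506 CPM and 0.258, 0.146 and 0.113 CPM. Endothelial markers summed to 1.17 to 1.33 CPM and 0.681 to 1.16 CPM, and of 3 tested *Kdr* was higher (2.33) and *Pecam1* lower (-1.20), the latter losing its call when any single library but replicate 3 of those labelled double-KO was left out (adjusted p between 0.0512 and 0.0821). Blood-cell markers summed to 16.6 to 18.4 CPM and 8.35 to 18.2 CPM, and *Csf1r* was higher and *Ptprc*, the pan-leukocyte CD45, lower, with 0.236, 0.251 and 0.207 CPM against 0.414, 0.439 and 0.391 CPM. *Ptprc* lost its call whichever library was left out (adjusted p between 0.0507 and 0.134), and *Csf1r* lost its call without each of the *Nf2*-KO libraries or replicate 2 of those labelled double-KO (adjusted p between 0.0561 and 0.116). The part of other cell types in the matrix genes was not tested, and in bulk RNA fewer cells of a type and less RNA per cell cannot be told apart.

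**Figure D3:**
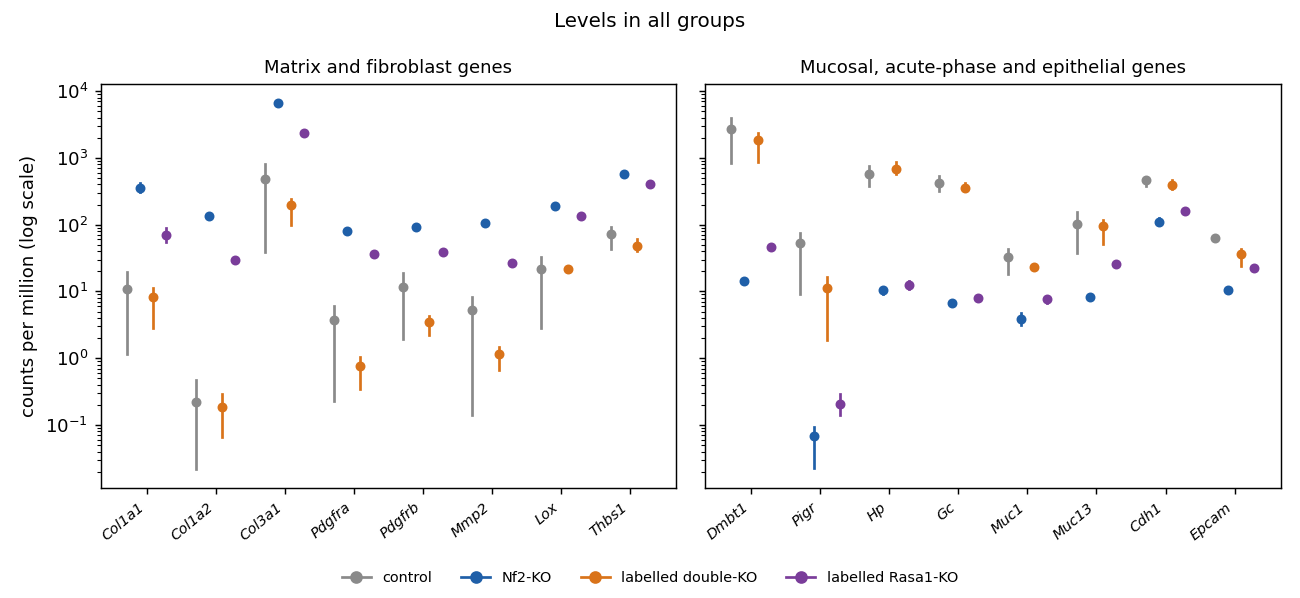
Levels of matrix and fibroblast genes (left) and of mucosal, acute-phase and epithelial genes (right) in all 4 groups, in CPM on a log scale. Points are means and lines the range of 3 libraries. *Col1a2* and *Pdgfra* are highest in *Nf2*-KO, and *Dmbt1*, *Hp* and *Gc* are lower in *Nf2*-KO and the libraries labelled *Rasa1*-KO than in the other groups, with wide ranges in control.

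Of 24 collagen chains tested, 16 were higher (66.7% against 23.0% of all genes) and 3 lower (12.5% against 23.3%), and the median log2 fold change was 1.20. *Col1a2*, the alpha 2 chain of collagen I (GRCm38 chromosome 6, 4505618 to 4541543), had 133, 136 and 139.6 CPM in *Nf2*-KO and 0.0672, 0.293 and 0.189 CPM in the libraries labelled double-KO, and its log2 fold change of 9.59 ± 0.27 (SE; adjusted p = 2.3e-07 in edgeR) was the largest of the list. *Col1a1*, its partner chain, had 415, 341 and 309 CPM in *Nf2*-KO and 2.82, 11.2 and 10.8 CPM in the libraries labelled double-KO (log2 fold change 5.44 ± 0.49 SE). Per length, the FPKM of *Col3a1* was 1084 ± 51.6 (SD, n = 3) in *Nf2*-KO, above 55.0 ± 8.23 for *Col1a1* and 24.0 ± 0.675 for *Col1a2*, and in the libraries labelled double-KO these were 30.9 ± 13.8, 1.24 ± 0.726 and 0.0302 ± 0.0193. *Col12a1*, a collagen on the surface of fibrils, differed by 4.05 ± 0.25 (SE; adjusted p = 8.6e-06 in edgeR), and *Col6a3* of microfibrillar collagen VI by 3.93 ± 0.080 (SE; adjusted p = 1.1e-07 in edgeR) as log2 fold changes. Its partner *Col6a1*, with 438 ± 17.5 FPKM against 325 ± 41.7 FPKM, had 0.38 (adjusted p = 0.031 by edgeR) and lost its call when any single library but replicate 1 of those labelled double-KO was left out (adjusted p between 0.06 and 0.125). *Col6a2* did not pass the test (0.17, adjusted p = 0.5) but did without that replicate 1 (0.42, adjusted p = 0.00209). The basement-membrane pair *Col4a1* and *Col4a2* was higher by 1.89 and 1.33, and *Col4a4* by 3.98 from levels under 3 CPM. The 3 lower chains were *Col15a1* (-2.22), *Col27a1* (-1.71) and *Col17a1* (-1.11), the last a hemidesmosomal collagen of epithelia.

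Laminins, integrins and matrix glycoproteins were split, with 8 (29.6%) of 27 higher and 13 (48.1%) lower and a median log2 fold change of -0.36, which was -0.23 without replicate 3 of the libraries labelled double-KO. Thrombospondins were the most raised, *Thbs1* with 607, 556 and 540.1 CPM in *Nf2*-KO and 61.4, 40.7 and 39.8 CPM in the libraries labelled double-KO (log2 fold change 3.60 ± 0.18 SE, adjusted p = 3.0e-06 in edgeR) and *Thbs2* at 3.85. *Sparc*, a collagen-binding matricellular protein, was higher by 1.66 and the linker protein *Nid2* by 2.03. On the lower side stood parts of epithelial adhesion to laminin, *Lamb3* of laminin 332 (-2.07) and *Itgb4* of the hemidesmosomal integrin (-1.50), with the collagen receptor *Itga2* (-2.04). *Itgb3* had 26.5, 22.7 and 21.7 CPM against 69.7, 91.7 and 91.6 CPM, a log2 fold change of -1.82. *Fn1*, fibronectin, had 3789, 2822 and 2463 CPM against 3309.8, 4537 and 4616 CPM, ranges that overlapped, and did not pass the test (log2 fold change -0.44, adjusted p = 0.088 by edgeR). It was lower without replicate 1 of *Nf2*-KO (-0.65, adjusted p = 0.0268), without replicate 1 of the libraries labelled double-KO (-0.60, adjusted p = 0.00512) and with DESeq2 (adjusted p = 0.0322).

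Among matrix proteases and lysyl oxidases 14 (45.2%) of 31 were higher and 8 (25.8%) lower (median 0.27 on the log2 scale). *Lox*, which cross-links collagen and elastin, had 204, 198 and 172 CPM in *Nf2*-KO and 22.1, 21.4 and 22.2 CPM in the libraries labelled double-KO (log2 fold change 3.14 ± 0.091 SE, adjusted p = 2.6e-07 in edgeR). *Mmp9* was higher by 2.50, *Mmp3* by 1.93 and *Adam19* by 2.50, whereas the epithelial matrilysin *Mmp7* was lower (-2.93), as were *Mmp15* (-1.79) and the sheddase *Adam10* (-1.08). Of 15 serpins, 8 (53.3%) were higher and 1 (6.67%) lower, with a median of 0.93. Besides *Serpinf1*, the higher members included *Serpinb7* (4.36) and the collagen chaperone *Serpinh1*, which had 335, 339 and 372 CPM in *Nf2*-KO and 118, 53.8 and 53.3 CPM in the libraries labelled double-KO. *Serpinb5*, maspin, was the lower one (-2.64).

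Lists of epithelial genes held more lower than higher members. None of 17 mucin, trefoil and gastric differentiation genes was higher and 12 were lower (70.6% against 23.3% of all genes), with a median log2 fold change of -2.54. *Pigr*, the transporter of secretory IgA across epithelia, had 0.0945, 0.0912 and 0.0230 CPM in *Nf2*-KO and 1.88, 15.9 and 16.5 CPM in the libraries labelled double-KO (log2 fold change -7.32 ± 0.98 SE, adjusted p = 0.00048 in edgeR). *Olfm4*, a glycoprotein of mucosal crypts, had 0.0945, 0.0456 and 0.0575 CPM against 2.82, 2.09 and 2.85 CPM (-5.25). The membrane mucins *Muc13* (-3.52), *Muc4* (-4.26) and *Muc1* (-2.52), the gel-forming *Muc5b* (-3.21) and the gastric junction protein *Vsig1* (-1.64) were lower as well. Values of *Muc13* were 9.14, 8.21 and 7.57 CPM against 52.1, 117 and 119 CPM, and those of *Vsig1* 57.3, 61.7 and 59.8 CPM against 186, 179 and 196 CPM. *Muc4* was high mainly in replicates 2 and 3 of the libraries labelled double-KO, with 0.672, 7.88 and 8.60 CPM against 0.343, 0.285 and 0.253 CPM. The trefoil gene *Tff3* had 0.168, 3.89 and 4.41 CPM against 0.0709, 0.0456 and 0.195 CPM, so that replicate 1 lay within the range of *Nf2*-KO, and its log2 fold change of -4.73 was -5.57 without replicate 3 of *Nf2*-KO.

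Tight junction and apical polarity genes had 13 (56.5%) of 23 lower and 4 (17.4%) higher, a median of -0.73. *Tjp3*, a junction scaffold also known as ZO-3, had 4.32 ± 0.400 CPM (SD, n = 3) in *Nf2*-KO and 39.5, 44.1 and 42.7 CPM in the libraries labelled double-KO (log2 fold change -3.27 ± 0.11 SE, adjusted p = 4.4e-07 in edgeR). *Marveld3* (-3.17), *Ocln*, occludin (-1.66), and the polarity gene *Llgl2* (-1.40) were lower too. The exception in size was *Cldn6*, an embryonic claudin, with 50.7, 50.2 and 54.8 CPM against 4.87, 6.62 and 6.75 CPM, a log2 fold change of 3.11 ± 0.14 (SE; adjusted p = 2.2e-06 in edgeR). *Tjp1*, ZO-1, had -0.21 and did not pass the test (adjusted p = 0.14 by edgeR) except without replicate 1 of the libraries labelled double-KO (-0.30, adjusted p = 0.0105).

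Of 26 keratin, desmosome and cornified-envelope genes, 13 (50%) were lower and 4 (15.4%) higher (median -0.62). *Dsp*, the desmosomal plaque protein desmoplakin, had 71.2, 68.7 and 65.0 CPM in *Nf2*-KO and 322, 301 and 306 CPM in the libraries labelled double-KO (log2 fold change -2.17 ± 0.076 SE, adjusted p = 7.1e-07 in edgeR), and the desmosomal cadherin *Dsg2* 13.5, 10.1 and 8.56 CPM against 40.8, 47.4 and 48.6 CPM (-2.07). *Ivl*, involucrin, was lower (-3.69), as were *Sprr2a1* (-3.45) and *Krt16* (-2.92). Of the keratins of simple epithelia *Krt19* was lower (-0.61, adjusted p = 0.00048 by edgeR). *Krt18* did not pass the test (-0.27, adjusted p = 0.061) but did with DESeq2 (adjusted p = 0.034), with a filter at 1 CPM (adjusted p = 0.0241) and with library sizes from protein-coding genes (adjusted p = 0.0367). The higher members were *Krt7*, *Krt13*, *Lor* and *Sprr1b*, of which *Krt7* lost its call when any of the *Nf2*-KO libraries was left out (adjusted p between 0.0995 and 0.111).

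Factors and markers of the epithelial-mesenchymal transition were higher for 7 (46.7%) and lower for 3 (20%) of 15. *Cdh1*, E-cadherin, has a conditional allele in the ChetPS mouse, and the study describes it as deleted in S1M, the metastatic variant of S1. *Cdh1* had 124, 109 and 97.3 CPM in *Nf2*-KO and 466, 341 and 355 CPM in the libraries labelled double-KO (log2 fold change -1.80 ± 0.14 SE, adjusted p = 3.0e-05 in edgeR). *Epcam*, an epithelial adhesion molecule, was lower (-1.79), and so was *Acta2*, smooth-muscle actin (-2.25). The transcription factors *Prrx1* (4.43), *Snai1* (3.01), *Snai2* (1.26), *Zeb2* (0.84) and *Zeb1* (0.58) were higher. *Prrx1* had 29.0, 26.8 and 21.5 CPM against 0.739, 1.10 and 1.80 CPM, and *Snai1* 8.15, 6.83 and 6.24 CPM against 0.706, 0.772 and 1.19 CPM. *Cdh2*, N-cadherin, had 76.5, 78.3 and 68.4 CPM against 83.5, 61.7 and 61.8 CPM and did not pass the test (adjusted p = 0.45 by edgeR), but did without replicate 1 of the libraries labelled double-KO (0.27, adjusted p = 0.00999). Of the actin and SRF genes, 8 (38.1%) of 21 were higher and 9 (42.9%) lower, among them the myosin light chain *Myl9* (-3.82) and *Fhl1* (-1.95) on the lower side and the calponin *Cnn2* (1.20) and *Fhl2* (0.77) on the higher. *Actb*, beta-actin, was higher by 0.52.

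The Hippo pathway acts downstream of merlin. Of 29 core and scaffold genes 11 were higher (37.9%) and 9 (31%) lower, *Nf2* among them. The kinase gene *Lats2*, itself a YAP target, had 59.4, 59.1 and 54.7 CPM in *Nf2*-KO and 36.9, 34.9 and 39.5 CPM in the libraries labelled double-KO (log2 fold change 0.65 ± 0.082 SE, adjusted p = 0.00033 in edgeR), and *Lats1* had -0.16 (adjusted p = 0.28 by edgeR). *Stk3*, the kinase MST2, was higher by 0.61. Binding proteins of YAP and LATS were among the most raised, with *Amotl2* at 2.35, *Ajuba* at 1.08 and *Amotl1* at 1.04, while *Amot* was lower (-0.42), though not without replicate 2 or 3 of *Nf2*-KO (adjusted p = 0.0526 and 0.0554). *Yap1* itself had 106, 97.0 and 98.1 CPM in *Nf2*-KO and 120.1, 106 and 108 CPM in the libraries labelled double-KO (adjusted p = 0.21 by edgeR) and *Wwtr1*, which encodes TAZ, 242, 251 and 248 CPM against 276, 246 and 269 CPM (adjusted p = 0.42). Among their DNA-binding partners *Tead1* was lower (-0.97) and *Tead2* higher (1.96). *Tead2* had 47.7, 51.2 and 57.2 CPM against 23.9, 8.52 and 8.23 CPM, and without replicate 1 of the libraries labelled double-KO its log2 fold change was 2.64.

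Of 22 YAP/TAZ-TEAD targets 9 were higher (40.9% against 23.0% of all genes) and 6 lower (27.3% against 23.3%), with a median log2 fold change of 0.34. *Ccn1*, the matricellular protein CYR61, had 389.5, 392 and 412 CPM in *Nf2*-KO and 25.6, 99.1 and 103 CPM in the libraries labelled double-KO (log2 fold change 2.40 ± 0.44 SE, adjusted p = 0.0026 in edgeR). *Ccn2*, the related CTGF, had 411, 385 and 374 CPM in *Nf2*-KO and 204, 389.6 and 387 CPM in the libraries labelled double-KO, ranges that overlapped, and did not pass the test (log2 fold change 0.27 ± 0.22 SE, adjusted p = 0.35 by edgeR). *Ankrd1*, a repeat protein of nucleus and sarcomere, had 299, 321 and 317 CPM against 79.2, 135 and 136 CPM (1.43), and *Amotl2* 286, 293 and 295 CPM against 43.5, 64.6 and 65.4 CPM. The receptor kinase *Axl* was higher by 0.66, *Ccdc80* by 3.19 and *Rbms3* by 2.56. Lower members were *Fjx1* (-1.51), *Dock5* (-1.23), *Nuak2* (-0.92), *Crim1* (-0.89), *Foxf2* (-0.68) and *Arhgef17* (-0.60). *Igfbp3* had 294, 313 and 313 CPM against 83.8, 238 and 244 CPM and did not pass the test (log2 fold change 0.71, adjusted p = 0.12 by edgeR), replicate 1 being the lowest library. Without that library it was higher by 0.35 (adjusted p = 0.0011).

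The TEAD core motif GGAATG was searched on both strands in the 250 bases before each annotated start site in RefSeq windows of GRCm38.p6. It stood in a window of 1620 of 12194 tested genes with a window (13.3%) and of 6 of the 15 targets with one, of which 4 were higher, 1 lower and 1 not called. Of the targets without the motif 4 were higher and 1 lower. The windows of 3 higher targets are given because they hold the motif; they were chosen after their values were seen, and a match is a description and no binding site. Capitals mark the motif on either strand.
*Ccn1* (chr3:145649986-145650235, minus strand): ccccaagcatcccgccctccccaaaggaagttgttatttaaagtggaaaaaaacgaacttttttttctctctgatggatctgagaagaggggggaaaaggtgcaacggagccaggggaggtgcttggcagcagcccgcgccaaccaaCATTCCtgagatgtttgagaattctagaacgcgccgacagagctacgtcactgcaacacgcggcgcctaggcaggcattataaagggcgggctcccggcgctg
*Ankrd1* (chr19:36119845-36120094, minus strand): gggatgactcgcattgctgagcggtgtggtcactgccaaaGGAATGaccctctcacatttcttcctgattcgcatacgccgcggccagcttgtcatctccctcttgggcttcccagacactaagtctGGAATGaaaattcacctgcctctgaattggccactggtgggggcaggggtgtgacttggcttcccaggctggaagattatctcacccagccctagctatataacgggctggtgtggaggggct
*Amotl2* (chr9:102717554-102717803, plus strand): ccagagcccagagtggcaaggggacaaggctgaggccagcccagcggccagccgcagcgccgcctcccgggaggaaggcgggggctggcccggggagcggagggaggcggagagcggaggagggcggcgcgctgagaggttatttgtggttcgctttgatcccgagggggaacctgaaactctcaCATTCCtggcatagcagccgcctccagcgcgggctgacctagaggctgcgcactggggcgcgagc

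Ras proteins, their GAPs and exchange factors showed 3 (14.3%) higher and 8 (38.1%) lower of 21. *Rasa1* was the most raised and *Rasal1*, another RasGAP, the most lowered, with 1.51, 1.58 and 1.76 CPM in *Nf2*-KO and 48.2, 29.6 and 26.4 CPM in the libraries labelled double-KO (log2 fold change -4.41 ± 0.24 SE, adjusted p = 5.5e-06 in edgeR). The inhibitor *Spred2* (-0.72) and the RasGAP gene *Rasa2* (-0.51) were lower, and *Rasa3* (0.55) and *Rras2* (0.60) higher. The number of lower members was between 3 and 9 when libraries were left out in turn, at 3 without replicate 2 of *Nf2*-KO, 4 without its replicate 3, 5 without replicate 2 and 4 without replicate 3 of the libraries labelled double-KO.

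Genes of ERK output had 4 (40%) of 10 higher and 3 (30%) lower. The ETS factor *Etv4* (0.60), the ephrin receptor *Epha2* (0.51) and *Ccnd1*, cyclin D1 (0.64), were higher, and *Phlda1* (-1.63) and the feedback inhibitor *Spry4* (-0.97) lower. *Ccnd1* had 284, 288 and 286 CPM in *Nf2*-KO and 153, 201 and 203 CPM in the libraries labelled double-KO (log2 fold change 0.64 ± 0.12 SE, adjusted p = 0.0025 in edgeR). *Dusp4*, an ERK phosphatase, had 59.6, 64.0 and 63.2 CPM against 58.8, 71.0 and 67.1 CPM and did not pass the test (adjusted p = 0.61 by edgeR). Of 18 AP-1 and immediate early genes, 8 were higher (44.4%) and 0 lower, with *Egr2* (1.89) the most raised. *Myc* had 84.0, 66.8 and 65.5 CPM in *Nf2*-KO and 19.2, 42.9 and 42.6 CPM in the libraries labelled double-KO (log2 fold change 1.06 ± 0.28 SE, adjusted p = 0.014 in edgeR) and did not pass the test without replicate 1 of *Nf2*-KO (adjusted p = 0.0592). *Egr1* had 45.0, 26.0 and 22.5 CPM against 9.65, 66.4 and 65.2 CPM and *Fos* 176, 175 and 192 CPM against 71.7, 253 and 257 CPM, replicate 1 of the libraries labelled double-KO lying below both other replicates. Without that library 8 members were higher and 7 lower, among the latter *Egr1* (-1.08, adjusted p = 0.00193) and *Fos* (-0.49, adjusted p = 0.00014), and without replicates 1, 2 and 3 of *Nf2*-KO 2, 4 and 5 were higher.

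Of 12 EGF-family ligands and receptors 5 (41.7%) were higher and 4 (33.3%) lower. The ligands *Nrg1* (1.63), *Areg* (1.32), *Ereg* (0.83) and *Hbegf* (0.56) were higher and *Btc* (-1.28) and *Egf* (-1.13) lower. *Nrg1* had 80.6, 71.0 and 64.3 CPM against 18.3, 24.9 and 27.1 CPM. The receptors *Erbb2* (-0.76) and *Erbb3* (-0.58) were lower, and *Egfr* had 128, 122 and 114 CPM against 86.6, 121 and 125 CPM and did not pass the test (adjusted p = 0.42 by edgeR). *Errfi1*, a feedback inhibitor of EGFR, was higher by 1.17.

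Wnt pathway genes were called in both directions. Of 25 ligands, receptors and antagonists 13 (52%) were higher and 6 (24%) lower, and *Wnt5a*, a ligand of the non-canonical branch, had 15.6, 13.6 and 11.5 CPM in *Nf2*-KO and 2.72, 3.06 and 3.11 CPM in the libraries labelled double-KO (log2 fold change 2.21 ± 0.15 SE, adjusted p = 1.3e-05 in edgeR). *Wnt9a* was higher by 2.35, *Wnt11* by 1.63 and the antagonist *Sfrp2* by 1.83, whereas *Wnt4* (-1.82) and the Wnt5a receptor *Ror1* (-2.85) were lower. Levels were very low for *Sfrp2*, with 0.543, 0.741 and 0.747 CPM against 0.269, 0.226 and 0.0757 CPM. For *Wnt11* they were 0.815, 1.03 and 0.896 CPM against 0.134, 0.359 and 0.403 CPM. Of 16 β-catenin targets 9 (56.2%) were lower and 4 (25%) higher, with a median log2 fold change of -0.62. *Axin2*, a feedback inhibitor and the usual reporter of the pathway, had 16.2, 13.6 and 14.0 CPM in *Nf2*-KO and 36.7, 25.3 and 23.7 CPM in the libraries labelled double-KO (log2 fold change -0.95 ± 0.17 SE, adjusted p = 0.002 in edgeR). *Lgr5*, an R-spondin receptor, had 12.3, 10.6 and 8.95 CPM against 24.1, 24.0 and 25.4 CPM (-1.19), and *Notum* (-1.21), *Lef1* (-2.15), *Cd44* (-1.20), *Sox9* (-0.96) and *Rnf43* (-0.68) were lower as well. The 4 higher targets were *Aqp5*, *Myc*, *Ccnd1* and *Birc5* (0.44). *Aqp5*, a water channel that also marks gastric stem cells, had 21.3, 20.8 and 25.2 CPM in *Nf2*-KO and 4.37, 2.26 and 2.71 CPM in the libraries labelled double-KO (log2 fold change 2.86 ± 0.23 SE, adjusted p = 3.5e-05 in edgeR).

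Of 18 stem-cell markers 11 (61.1%) were lower and 3 (16.7%) higher. Besides *Olfm4*, the aldehyde dehydrogenases *Aldh1a1* (-4.76) and *Aldh1a3* (-4.77) were the lowest, and *Aldh1a1* had 2.00, 2.13 and 2.36 CPM in *Nf2*-KO and 61.3, 57.8 and 58.8 CPM in the libraries labelled double-KO. *Prom1*, CD133, was lower (-1.55), whereas *Ly6a*, Sca-1, was higher by 1.34 and had 409, 404 and 413 CPM against 189, 148 and 153 CPM. *Lrig1* did not pass the test (0.11, adjusted p = 0.49 by edgeR) except without replicate 1 of the libraries labelled double-KO (0.25, adjusted p = 0.00732).

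BCL2 family genes were called for 6 (33.3%) lower and 2 (11.1%) higher of 18. *Bcl2* had 24.8, 22.7 and 21.6 CPM in *Nf2*-KO and 24.7, 24.7 and 25.1 CPM in the libraries labelled double-KO and did not pass the test (log2 fold change -0.10 ± 0.086 SE, adjusted p = 0.4 by edgeR). *Bcl2l1*, which encodes Bcl-xL, had 39.3, 34.8 and 33.5 CPM in *Nf2*-KO and 50.3, 54.5 and 48.5 CPM in the libraries labelled double-KO (log2 fold change -0.49 ± 0.093 SE, adjusted p = 0.0029 in edgeR). Pro-death members were lower (*Bmf* -1.15, *Bok* -1.18, *Pmaip1* -0.70) or higher (*Bbc3* 0.88). *Bax* was higher (0.39), but it did not pass the test when any *Nf2*-KO library, or replicate 2 or 3 of the libraries labelled double-KO, was left out (adjusted p between 0.0508 and 0.0884).

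Of 28 BMP and TGF-β genes 9 (32.1%) were higher and 7 (25%) lower, shares near those of all genes. *Bmp4* had 64.3, 65.5 and 62.9 CPM in *Nf2*-KO and 43.2, 47.8 and 55.5 CPM in the libraries labelled double-KO (log2 fold change 0.41 ± 0.10 SE, adjusted p = 0.011 in edgeR) and did not pass the test without replicate 2 of *Nf2*-KO (adjusted p = 0.0605). The BMP antagonists *Grem1* (2.14) and *Nog* (1.49), the activin antagonist *Fst* (1.63) and the activin subunit *Inhbb* (1.93) were higher. *Bmp7*, another ligand, was the most raised (2.58), but from very low levels, with 0.555, 0.809 and 0.701 CPM against 0.134, 0.160 and 0.0504 CPM. *Grem1* had 23.0, 25.1 and 25.2 CPM against 2.77, 7.27 and 6.78 CPM. *Tgfb3* (-1.53), *Tgfb1* (-0.91) and the BMP target *Id1* (-0.95) were lower, while the receptors *Tgfbr2* (0.94) and *Tgfbr3* (1.67) were higher.

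Insulin-like growth factor binding proteins gave 4 (40%) higher and 3 (30%) lower of 10 with their receptors and RNA-binding proteins. *Igfbp4* had 149, 146 and 152 CPM in *Nf2*-KO and 180.2, 119 and 113 CPM in the libraries labelled double-KO, a log2 fold change of 0.13 that did not pass the test (adjusted p = 0.54 by edgeR). Replicate 1 of the libraries labelled double-KO was the highest library, and without it the log2 fold change was 0.36 (adjusted p = 0.000804). *Igfbp5* was lower (-3.54) and *Igf2bp1* (1.36) and *Igf2bp3* (1.19) were higher. The counts fell to 2 higher and 1 lower without replicate 2 of *Nf2*-KO and to 3 and 1 without its replicate 3. Of 14 Notch genes 4 (28.6%) were higher and 5 (35.7%) lower, shares not far from those of all genes. The receptor *Notch3* was the most raised (2.55, with 41.5, 29.7 and 28.8 CPM against 4.42, 6.74 and 6.05 CPM) and the ligand *Jag1* was lower (-0.87), and leaving out single libraries moved these counts to between 2 and 4 higher and between 2 and 5 lower. Of 16 Eph receptors and ephrins 3 (18.8%) were higher and 3 (18.8%) lower, below the share of all genes in both directions.

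Proliferation genes were called higher. Of 31 genes of S phase and mitosis 27 were higher (87.1% against 23.0% of all genes) and none lower, with a median log2 fold change of 0.69. *Ccna2*, cyclin A2, had 116, 122 and 116 CPM in *Nf2*-KO and 57.0, 52.4 and 54.6 CPM in the libraries labelled double-KO (log2 fold change 1.12 ± 0.070 SE, adjusted p = 9.3e-06 in edgeR). The checkpoint kinase *Bub1* (1.18), *Cdc25c* (1.10), the spindle kinase *Aurka* (1.10) and *Ccne2*, cyclin E2 (1.04), were higher too. *Mki67*, the proliferation antigen Ki-67, had 227, 209 and 179 CPM against 149, 159 and 165 CPM (0.39), without its call when replicate 1 or 2 of *Nf2*-KO was left out (adjusted p = 0.0523 and 0.0625). The 4 members that did not pass were *Foxm1*, *Rrm1*, *Tyms* and *Ccne1*, with log2 fold changes between 0.15 and 0.38. Without replicate 1 of the libraries labelled double-KO all but *Foxm1* passed (adjusted p between 0.0045 and 0.0202). Of 19 G1 cyclins, CDKs and their inhibitors 9 (47.4%) were higher and 3 (15.8%) lower. These included *Cdk4* (0.80) and *Ccnd1* but also the inhibitors *Cdkn2b* (0.91), *Cdkn2a* (0.69) and *Cdkn1b* (0.66), and *Ccnd2*, cyclin D2, was lower (-1.03).

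**Figure D4:**
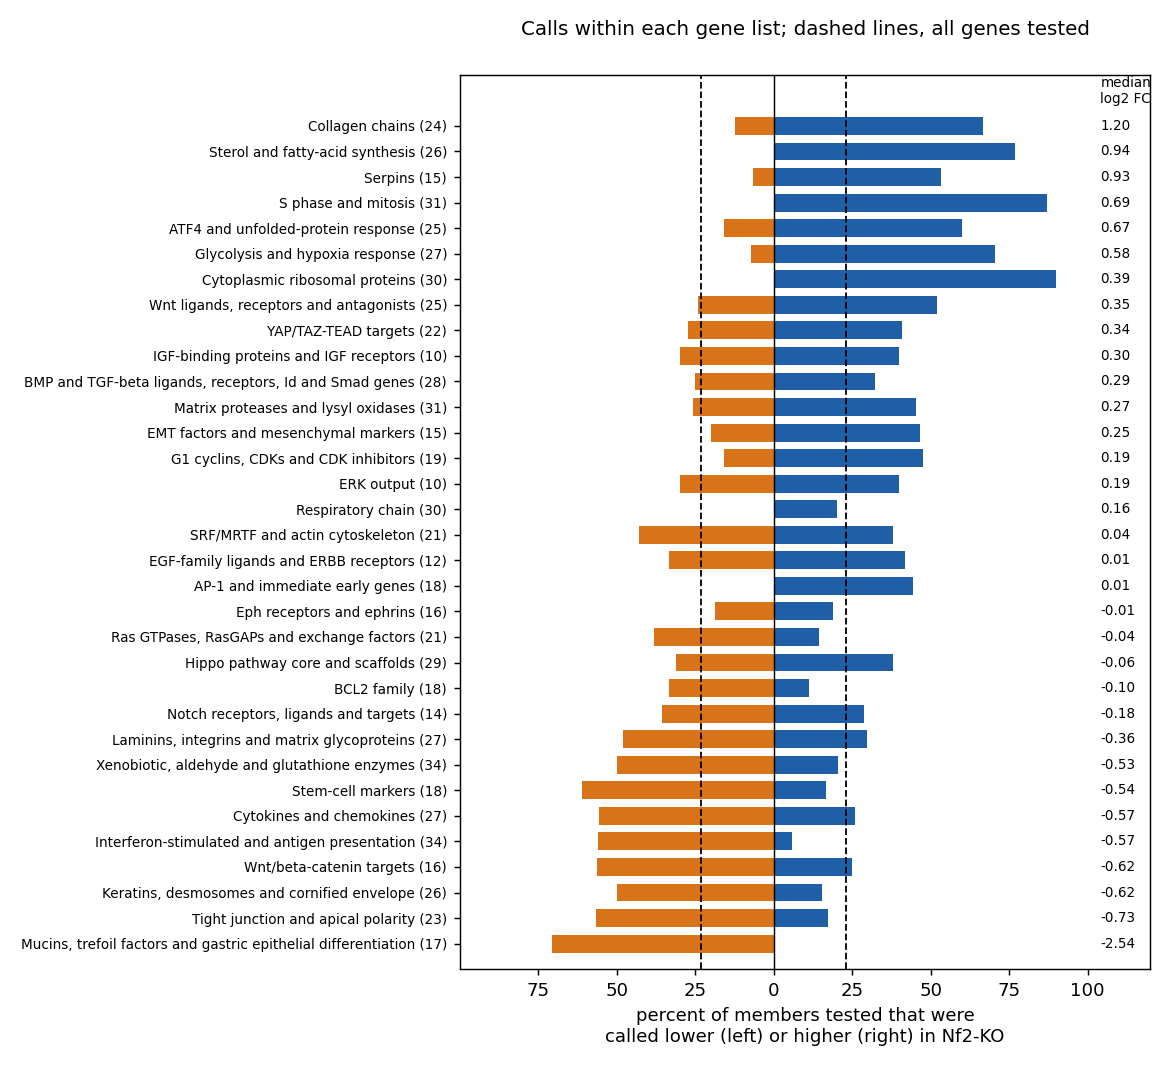
Share of the members tested that were called lower (orange, to the left) or higher (blue, to the right) in *Nf2*-KO for 33 gene lists with at least 10 members tested, with the number tested in brackets and the median log2 fold change at the right. Dashed lines mark the shares of all genes tested, 23.3% lower and 23.0% higher. Ribosomal proteins, S phase genes and sterol synthesis reach furthest to the right and mucins to the left.

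Without replicate 1 of the libraries labelled double-KO, the library that stood apart, more genes were called among all genes tested. Of 17809 genes in that fit 5026 were higher and 5047 lower, against 4051 and 4101 of 17600 with all 6 libraries. Counts of list members in that fit are to be read against this general rise. In it 18 collagen chains were higher and 3 lower, and 14 mucin and gastric genes were lower and none higher. Keratin and desmosome genes were then lower for 17 and higher for 5, tight-junction genes for 15 and 4, and interferon genes for 23 and 2. Higher genes numbered 30 in S phase and mitosis, 22 in sterol synthesis and 29 among ribosomal proteins, with none lower in these lists. The YAP/TAZ-TEAD targets had 10 higher and 8 lower members, and their median log2 fold change went to 0.18.

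Lists of biosynthesis held more higher than lower members. Of 26 genes of sterol and fatty-acid synthesis 20 (76.9%) were higher and none lower, with a median of 0.94. *Lss*, lanosterol synthase, had 263, 274 and 275 CPM in *Nf2*-KO and 136, 82.3 and 85.4 CPM in the libraries labelled double-KO (log2 fold change 1.44 ± 0.18 SE, adjusted p = 0.00032 in edgeR). *Insig1*, a sterol sensor (1.43), *Sqle*, squalene epoxidase (1.32), *Cyp51* (1.29) and *Fdps* (1.23) were higher. The regulators *Srebf2* (-0.26) and *Srebf1* (0.12) did not pass the test, except *Srebf2* without replicate 1 of *Nf2*-KO (-0.49, adjusted p = 0.00485) and *Srebf1* without replicate 1 of the libraries labelled double-KO (0.22, adjusted p = 0.0154). Nor did the fatty-acid synthase gene *Fasn* with 475, 426 and 433 CPM against 487, 417 and 410.1 CPM (adjusted p = 0.78 by edgeR). Of 30 ribosomal protein genes 27 (90%) were higher and none lower (median 0.39). Their log2 fold changes were small, from 0.18 to 0.72. In 1 fit over all 12 libraries 6 were higher, and in the fit of 6 libraries the number called was 17 without replicate 2 and 16 without replicate 3 of *Nf2*-KO and 18 without replicate 2 and 16 without replicate 3 of the libraries labelled double-KO. *Rpl5* had 1394, 1556 and 1607 CPM against 912, 915 and 967 CPM.

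Glycolysis and hypoxia-response genes were higher for 19 (70.4%) and lower for 2 (7.41%) of 27, with a median of 0.58. *Pgk1*, phosphoglycerate kinase, had 3269, 3471 and 3693 CPM in *Nf2*-KO and 1859, 1712 and 1744 CPM in the libraries labelled double-KO (log2 fold change 0.99 ± 0.093 SE, adjusted p = 7.7e-05 in edgeR), and *Eno2* (1.79), the collagen prolyl hydroxylase *P4ha1* (1.56), the mitophagy receptor *Bnip3* (1.24) and *Pdk1* (0.95) were higher. *Vegfa*, the angiogenic factor, had 629.8, 670.1 and 651 CPM against 309, 408 and 398 CPM (0.82). The lower members *Egln3* (-0.39) and *Slc16a3* (-0.24) lost their calls without several single libraries, for example replicate 2 of *Nf2*-KO (adjusted p = 0.0592 and 0.0939) and replicate 2 of the libraries labelled double-KO (adjusted p = 0.0509 and 0.118). In the respiratory chain 6 (20%) of 30 genes were higher, below the 23.0% of all genes, and none lower. The median was 0.16, and between 0.06 without replicate 3 and 0.27 without replicate 1 of the libraries labelled double-KO, and 19 were higher without that replicate 1. The number was 2 without replicate 2 or 3 of either group, and 1 was lower without replicate 3 of those labelled double-KO.

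ATF4 and unfolded-protein response genes were higher for 15 (60%) and lower for 4 (16%) of 25, with a median log2 fold change of 0.67. *Atf4*, the transcription factor of the integrated stress response, had 572, 624 and 633 CPM in *Nf2*-KO and 269.9, 272 and 275 CPM in the libraries labelled double-KO (log2 fold change 1.18 ± 0.077 SE, adjusted p = 1.2e-05 in edgeR). Its targets *Trib3* (2.24), *Ddit3*, which encodes CHOP (2.15), *Chac1* (1.73) and *Asns*, asparagine synthetase (1.20), were higher. *Hspa5*, the chaperone BiP, had 1502, 1656 and 1667 CPM in *Nf2*-KO and 767, 642 and 646 CPM in the libraries labelled double-KO (log2 fold change 1.25 ± 0.10 SE, adjusted p = 3.5e-05 in edgeR), and the chaperone *Hsp90b1* was higher by 0.83. *Xbp1* (-0.63) and *Herpud1* (-0.39) were lower, and so was the cystine transporter *Slc7a11* (-0.55). The endoplasmic-reticulum stress element (CCAAT, then 9 bases of any kind, then CCACG), searched on both strands in the same windows of 250 bases, stood in a window of 20 of 12194 genes (0.164%) and of 2 of the 24 list members with a window. Of the members without it 13 were higher and 4 lower. The windows of these members are given with the element in capitals.
*Hspa5* (chr2:34771840-34772089, plus strand): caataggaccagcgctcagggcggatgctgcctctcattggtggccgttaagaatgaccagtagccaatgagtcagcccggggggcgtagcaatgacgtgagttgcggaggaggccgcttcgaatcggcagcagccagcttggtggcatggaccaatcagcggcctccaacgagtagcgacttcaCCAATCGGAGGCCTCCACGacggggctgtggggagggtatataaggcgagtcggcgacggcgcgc
*Hsp90b1* (chr10:86705445-86705694, minus strand): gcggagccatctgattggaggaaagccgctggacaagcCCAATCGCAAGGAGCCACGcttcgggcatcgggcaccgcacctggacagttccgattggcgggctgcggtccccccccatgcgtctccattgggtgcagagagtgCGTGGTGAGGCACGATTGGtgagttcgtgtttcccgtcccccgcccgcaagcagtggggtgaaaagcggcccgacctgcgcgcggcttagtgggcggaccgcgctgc

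Interferon-stimulated and antigen-presentation genes were lower for 19 (55.9%) and higher for 2 (5.88%) of 34, with a median log2 fold change of -0.57. *Ifit1*, an interferon-induced binder of viral RNA, had 2.66, 2.77 and 2.64 CPM in *Nf2*-KO and 4.64, 7.96 and 7.72 CPM in the libraries labelled double-KO (log2 fold change -1.32 ± 0.22 SE, adjusted p = 0.0014 in edgeR), and its relative *Ifit3* 2.68, 2.40 and 2.52 CPM against 3.96, 7.87 and 8.38 CPM (-1.40). The invariant chain gene *Cd74* (-2.42), *Oas1a* (-1.91) and the immunoproteasome subunit *Psmb9* (-1.39) were lower. *Mx1* was lower too (-1.96), but lost its call when any single library but replicate 1 of those labelled double-KO was left out (adjusted p between 0.094 and 0.141). The higher members were *B2m*, beta-2-microglobulin (0.66), and *Ifit2* (0.85). The number lower was between 12 and 14 when any single library but replicate 1 of those labelled double-KO was left out. Without that replicate 1 it was 23. The class I gene *H2-D1* was lower (-0.59) and *H2-K1* did not pass the test (adjusted p = 0.38 by edgeR).

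The interferon-response motif (GAAA, 2 bases of any kind, then GAAA again), searched on both strands in the windows of 250 bases, stood in a window of 387 of 12194 genes (3.17%) and of 12 of the 25 list members with a window. Of these 12, 7 were lower, 1 was higher and 4 were not called, and of the members without it 5 were lower and 1 higher. The windows of *Ifit1* and *Ifit3* are given because each holds the motif at 2 positions, in capitals; they were chosen after their values were seen.
*Ifit1* (chr19:34640639-34640888, plus strand): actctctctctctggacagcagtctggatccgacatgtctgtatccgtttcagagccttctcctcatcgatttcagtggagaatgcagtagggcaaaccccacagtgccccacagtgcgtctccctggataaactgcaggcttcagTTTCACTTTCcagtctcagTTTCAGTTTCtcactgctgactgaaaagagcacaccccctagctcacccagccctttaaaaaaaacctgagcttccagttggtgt
*Ifit3* (chr19:34583279-34583528, plus strand): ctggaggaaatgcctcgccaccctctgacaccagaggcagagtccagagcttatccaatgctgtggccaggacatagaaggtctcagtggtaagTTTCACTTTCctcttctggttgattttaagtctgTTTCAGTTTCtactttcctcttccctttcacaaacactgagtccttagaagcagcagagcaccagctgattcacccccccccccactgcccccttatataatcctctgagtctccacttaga

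Of 27 cytokines and chemokines 15 (55.6%) were lower and 7 (25.9%) higher (median -0.57). *Tnf* (-2.98), the chemokine *Ccl20* (-2.62), *Csf2* (-2.03), *Csf3* (-1.85) and the receptor antagonist *Il1rn* (-1.89) were lower, and *Ccl20* had 6.52, 7.38 and 8.03 CPM against 56.8, 39.2 and 40.4 CPM. On the higher side were *Il33*, an alarmin, with 769, 823 and 824 CPM in *Nf2*-KO and 144, 224 and 244 CPM in the libraries labelled double-KO (log2 fold change 2.00 ± 0.18 SE, adjusted p = 6.9e-05 in edgeR), *Csf1* (1.22) and *Il6* (3.14). *Il6* had 1.74, 2.50 and 2.07 CPM against 0.123, 0.439 and 0.164 CPM and a log2 fold change of 3.89 without replicate 2 of the libraries labelled double-KO. Enzymes of xenobiotic, aldehyde and glutathione metabolism were lower for 17 (50%) and higher for 7 (20.6%) of 34. *Gsta3* (-3.75) and *Gsta4* (-1.67), which are glutathione transferases, were lower, and *Hmox1*, haem oxygenase, had 149.5, 151 and 148 CPM against 82.0, 54.7 and 54.4 CPM, a log2 fold change of 1.25 ± 0.15 (SE; adjusted p = 0.0003 in edgeR).

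**Figure D5:**
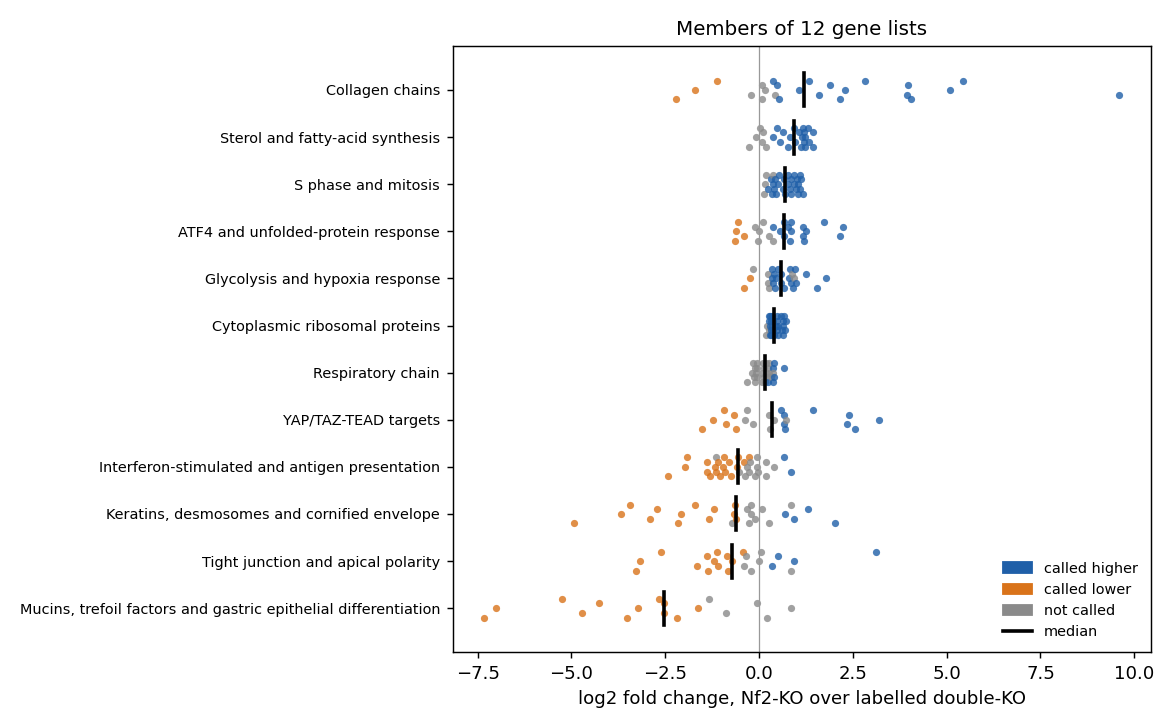
Log2 fold change of *Nf2*-KO over the libraries labelled double-KO for each member tested in 12 gene lists. Each point is a gene, blue or orange where it was called higher or lower and grey where it was not, and black bars are medians. Collagen chains and mucins spread over many log2 units, while ribosomal proteins and S phase genes lie in narrow bands above 0.

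By class of gene, protein-coding genes were balanced, with 3609 higher (26.2%) and 3593 lower (26.1%) of 13749. Of 2061 lncRNA genes 159 were higher (7.71%) and 387 lower (18.8%), both below the shares of all genes, with a median log2 fold change of -0.27. Pseudogenes had 218 higher (18.5%) and 63 lower (5.34%) of 1180 and snoRNA genes 26 higher (13.3%) and 4 lower (2.05%) of 195, again below the shares of all genes in both directions. Reads of pseudogenes can be shared with their parent genes, so these counts are uncertain.

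The groups left out of the fit allow the same genes to be set beside a comparison that shares no library. The libraries labelled *Rasa1*-KO, low in *Nf2* and in *Rasa1* mRNA, were compared with control in a fit of their own. In it 2114 of 17735 genes were higher (11.9%) and 2418 lower (13.6%). *Nf2* was lower in both comparisons, with log2 fold changes of -2.12 here and -2.29 there. *Rasa1* went in opposite directions, with 2.26 here and -1.15 there (adjusted p = 0.0022 in edgeR). Of the genes tested in both comparisons, 4040 were higher in *Nf2*-KO here, and 1625 of these (40.2%) were also higher in the other comparison, where the share of all genes was 12.1%. Of 4093 lower genes 1886 (46.1%) were lower there too, against 13.8% of all genes. The shared genes were 76.9% of those higher and 78.5% of those lower in the other comparison. Opposite calls were few, with 25 genes higher here and lower there and 48 the reverse. Across 17454 genes the log2 fold changes had a Pearson's r of 0.725, which describes genes and not independent replicates. Single libraries moved the other comparison widely. Among the genes tested in both, 5518 were higher and 5233 lower in it without the unnumbered control library, and 781 and 985 without replicate 2 of the libraries labelled *Rasa1*-KO. The genes called alike in both comparisons were then 3165 higher and 3027 lower, or 663 and 894. Leaving out control replicate 1, replicate 1 or the unnumbered library of those labelled *Rasa1*-KO gave 686 to 791 higher and 912 to 1050 lower in both.

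In the other comparison *Hp* had a log2 fold change of -5.53 ± 0.30 (SE; adjusted p = 0.00014 in edgeR) and *C3* of -4.49 ± 0.22 (SE; adjusted p = 9.7e-05 in edgeR). *Amotl2* had a log2 fold change of 2.35 ± 0.20 (SE; adjusted p = 0.00057 in edgeR) there and *Aqp5* of 3.66 ± 0.25 (SE; adjusted p = 0.00029 in edgeR). For several matrix genes the other comparison gave positive values that did not pass its test, among them *Col3a1* with 2.28 ± 0.89 (SE; adjusted p = 0.099 in edgeR) and *Mmp2* with 2.30 ± 1.03 (SE; adjusted p = 0.14 in edgeR), while *Col1a2* passed with 7.23 ± 0.74 (SE; adjusted p = 0.0011 in edgeR). Control libraries spread over 39.4 to 806 CPM for *Col3a1*. *Col6a3*, with 3.93 here, had 0.01 ± 0.46 (SE; adjusted p = 0.99 in edgeR) there. Keratins and interferon genes had medians of -0.62 and -0.57 here and 0.57 and 0.06 there, and *Krt14* had 0.37 ± 0.53 (SE; adjusted p = 0.63 in edgeR). The medians of sterol, glycolysis and ribosomal protein genes were 1.48, 1.48 and 1.07 there and 0.94, 0.58 and 0.39 here.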

How the data were processed

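RNA of 12 libraries of S1 tumorspheres was sequenced after rRNA removal. Per the submitters' processing notes, Trimmomatic 0.38 removed adapters, HISAT 2.1.0 mapped reads on mm10, and StringTie 2.1.3b quantified RefSeq genes. The authors deposited raw read counts per gene, used here for all tests, and FPKM, divided by the authors by transcript length and depth, used only to set levels of different genes side by side. The tables list genes with at least 1 count in all 12 libraries, and TPM and a normalized column were not used.

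In R 4.3.3, counts of the 6 libraries were tested with edgeR 4.0.16 (filterByExpr, TMM, quasi-likelihood test, Benjamini-Hochberg over 17600 genes) without a covariate, as the study compared pairs of groups. Positive log2 fold changes are higher in *Nf2*-KO, and called means an adjusted p under 0.05. A two-sided exact permutation test of 3 against 3 cannot go below 0.1 and was not used. The code was tested on simulated data. Alternatives were DESeq2 1.42.0, RLE size factors, other filters, 1 fit over 12 libraries, protein-coding genes alone in the scaling, glmTreat, a replicate block and leaving out each library. Gene positions and promoter windows are from RefSeq on GRCm38.p6, which matched 18878 of the 18926 genes. Genes named are the targets, those the study names, the 12 with the largest log2 fold changes in each direction (at least 10 counts in every library, 1 CPM in the higher group, no overlap), the 6 with the largest CPM differences at 2-fold or more, and up to 5 called members per list and direction. A further 53 list members, called or not, were chosen after their values were seen. The members and the 37 lists were chosen with earlier results of these data known. Figures were drawn with matplotlib 3.10.9.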

Additional observations from a re-analysis of the deposited data

How the results depend on the processing

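The numbers of genes higher and lower in *Nf2*-KO stayed within 1.5 times of 4051 and 4101 under every alternative but glmTreat, which asks for a change beyond 1.5-fold and gave 1192 higher and 1623 lower. Leaving out 1 library gave 2891 to 5026 higher and 3215 to 5047 lower, and by the rule of the study 509 to 578 and 855 to 991. DESeq2 gave 4144 and 4350, and 1 fit over 12 libraries 2761 and 3059. The comparison of libraries labelled *Rasa1*-KO with control depended on single libraries, with 781 to 5518 higher, 985 to 5233 lower, 663 to 3165 higher in both comparisons and 894 to 3027 lower in both. No called gene that is named reversed. Of 343 named genes with a test, 44 lost their call in the fit over 12 libraries, 5 with DESeq2 and between 2 and 39 without a single library, and 13 gained one without replicate 1 of the libraries labelled double-KO. In the fit over 12 libraries ribosomal protein genes had 6 higher, AP-1 and immediate early genes 3, the respiratory chain 1, and Ras genes 2 lower.

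The replicate numbers did not pair the libraries: deviations of same-numbered libraries from their group means correlated at -0.086, -0.035 and -0.099. With the replicate block 3428 genes were higher and 3533 lower, 13 named genes lost their call and 1 gained one; ribosomal protein genes had 17 higher, Notch genes 2 lower and Ras genes 5 lower. Other scalings and filters moved the median of all genes by less than 0.1 on the log2 scale, and with libraries left out as well the share of higher genes among calls was between 46.3% and 49.9%. Of 4064 genes with a mean under 1 CPM 21.8% were called, with a median standard error of 0.40 on the log2 scale, against 55.3% and 0.10 of 9495 genes at 10 CPM or more.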
